A study of Mus musculus with 16 samples.

Results

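Myosin-specific CD4+ T cells (TCRM cells) of infarcted and of sham-operated mice were compared on 8 of the 16 arrays of the series, 5 after infarction and 3 after sham operation. The arrays were chosen by their titles, and genes were named from the symbol column of the authors' 2 deposited tables, where a probe set had 1 symbol. Per the labels, the donors were naive TCR-M mice, whose T cells carry a receptor for cardiac myosin, and the recipients were male BALB/c mice of 8 to 12 weeks. The donor cells bore the marker Thy1.1 and the recipients Thy1.2, so that transferred cells could be told from the host's own T cells. All recipients of both groups got the cells 1 day before the operation, and buprenorphine for pain. The infarction group had the left anterior descending coronary artery tied, and the sham group had the chest opened only. On day 7, CD4+ TCRbeta+ cells of the heart-draining mediastinal nodes were sorted to a purity above 98%, per the labels. The recipients kept their own T cells. The promoter that drives the transgenic receptor is not given in the sources used here.

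As background, a naive CD4+ T cell that meets its antigen in a lymph node divides and takes on one of several helper states, each with its own transcription factors, cytokines and surface receptors. Follicular helper cells make IL-21 and IL-4, bear PD-1 and help B cells, regulatory T cells restrain other cells, and type 1 helper cells bear CXCR3 and migrate to inflamed tissue. Chronically or strongly stimulated T cells also acquire inhibitory receptors such as PD-1 and TIGIT. Cardiac myosin is an intracellular protein of heart muscle that is released when muscle cells die.

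The question of the comparison was which transcripts differed in these cells after infarction. The signal is a log2 value per probe set (transcript cluster), so a difference of 1 is a factor of 2. A call means an adjusted p under 0.05 in limma over 28941 tested probe sets, and differences are infarction minus sham with the standard error (SE) of that fit. The design text gives 5 infarcted and 3 sham-operated animals, and the number of arrays limits the precision. In bulk samples, fewer cells of a kind and less RNA per cell cannot be told apart. Cd4, Cd3e and Thy1, which define the labelled cells, carry no symbol in the tables used and were not analysed here.

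Median signal lay between 5.37 and 5.43 on the 8 arrays. Sham array 3 stood apart, with a mean correlation of 0.953 with the other TCRM arrays and a score of 71.2 on a first principal component that held 33.8% of the variance. Sham array 2 had the lowest score on the second component, -59.8. The array titled infarction 5 has a source name that says sham, and its title was used. In a fit without that array, 42 probe sets rose, and on all 42 its own signal lay above every sham array, with a median of 7.86 beside 7.74 to 8.26 on the other infarction arrays and 5.99 to 6.40 on the sham arrays. Counted as sham, that array left 0 calls in limma, with 2488 probe sets at an unadjusted p under 0.05.

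The 54 probe sets with the highest identifiers in the value table, which the files used here do not name, also differed widely between arrays. Of these, 48 were tested, and their median signal was 7.74, 7.27, 10.1, 7.41 and 8.72 on infarction arrays 1 to 5. On sham arrays 1 to 3 it was 9.06, 10.5 and 10.8. Infarction array 3 thus lay within the sham range and infarction arrays 1, 2, 4 and 5 below it. With this median as a covariate in the fit, an alternative added after seeing the data, 0 probe sets passed, and 2017 had an unadjusted p under 0.05. Tigit then differed by 2.72 (adjusted p = 0.0599) and Il21 by 2.38 (adjusted p = 0.136). Since this median ran largely with the group, the covariate fit is less precise and cannot fully separate the median from the operation. What these probe sets measure was not tested.

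Of the 28941 tested probe sets, 122 (0.422%) passed. Of these, 109 (0.377%) rose and 13 (0.0449%) fell after infarction. The rises had a median of 1.25 and the falls of -0.90, while the median difference of all tested probe sets was -0.0015. Among the rises 71 were at least 2-fold and 17 at least 4-fold, and among the falls 5 were at least 2-fold and 0 at least 4-fold. On all 122 the infarction arrays lay wholly above or wholly below the sham arrays. Such separation was also seen upwards in 1653 probe sets (5.71%) and downwards in 1353 (4.68%) of all those tested. The count of calls lay between 24 without infarction array 1 and 260 without sham array 1, as the bar chart of left-out arrays shows. Leaving out infarction array 5 gave 45, and leaving out sham array 2 or 3 gave 30 or 60.

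**Figure D1:**
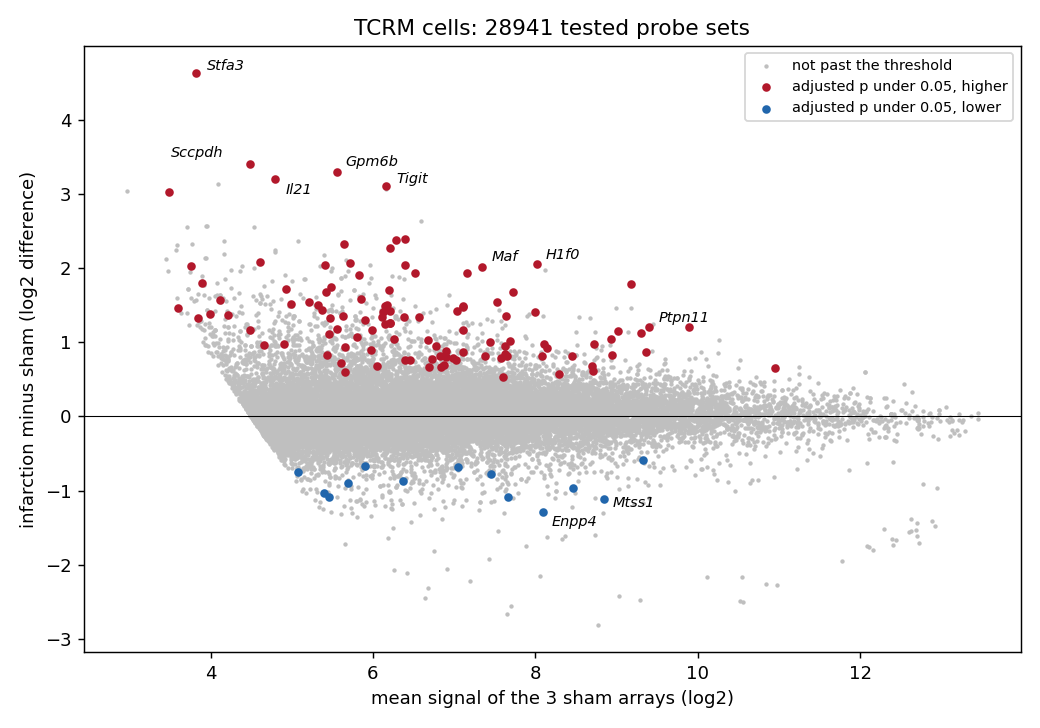
Difference between infarction and sham (log2, vertical axis) against the mean signal of the 3 sham arrays (log2, horizontal axis) for 28941 tested probe sets, with rises past the threshold in red and falls in blue. Stfa3, Sccpdh, Gpm6b, Il21 and Tigit lie at the top, most of them at low sham signal, and Enpp4 and Mtss1 lie among the falls.

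**Figure D2:**
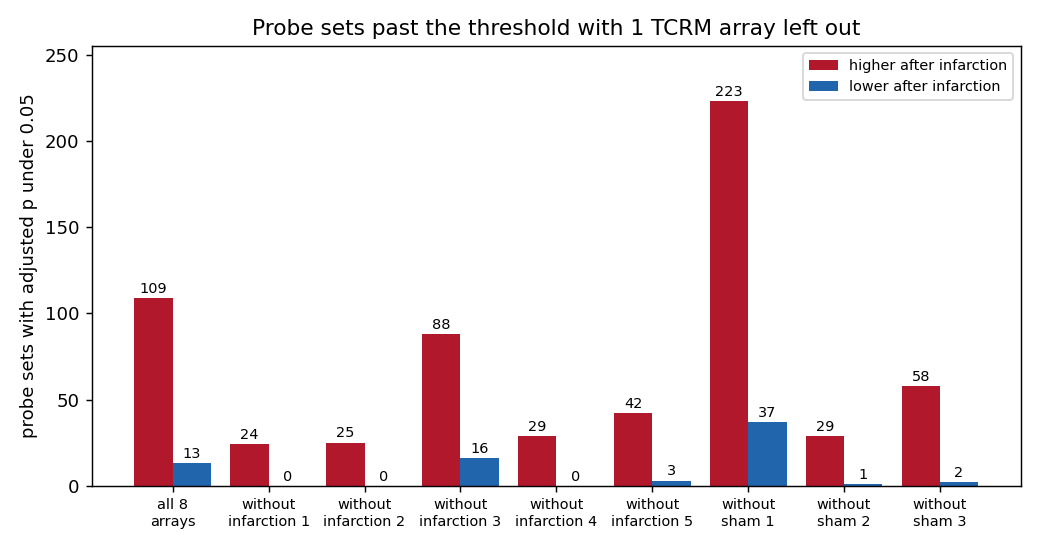
Number of probe sets with an adjusted p under 0.05 (vertical axis), higher (red) and lower (blue) after infarction, with all 8 arrays and with each array left out in turn. The rises range from 24 to 223 and the falls from 0 to 37.

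Of the 122 called probe sets 53 had 1 symbol, and 69 could not be named. The authors' table for these cells holds 135 genes with 1 symbol that are no gene model, small RNA or receptor segment, and 133 of them were tested. Of those 133, 47 rose, 2 fell and 84 did not pass, and 121 had a higher mean after infarction. That table was selected by its authors on the same contrast, so these counts and those of the gene lists below describe the named genes and are not independent evidence of direction. With each of the 8 arrays left out in turn, 14 of the 49 genes kept an adjusted p under 0.05 every time, and these were Stfa3, Tigit, Art2a-ps, Angptl2, Gpr155, H1f0, Il4, Nav2, Maf, Zdhhc2, Cst7, Cd38, Cyfip1 and Cxcr3. Of the 49, 31 lost the call without infarction array 1, 31 without array 2, 8 without array 3, 32 without array 4 and 23 without array 5. Leaving out sham array 1, 2 or 3 ended 7, 31 and 20 of these calls.

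**Figure D3:**
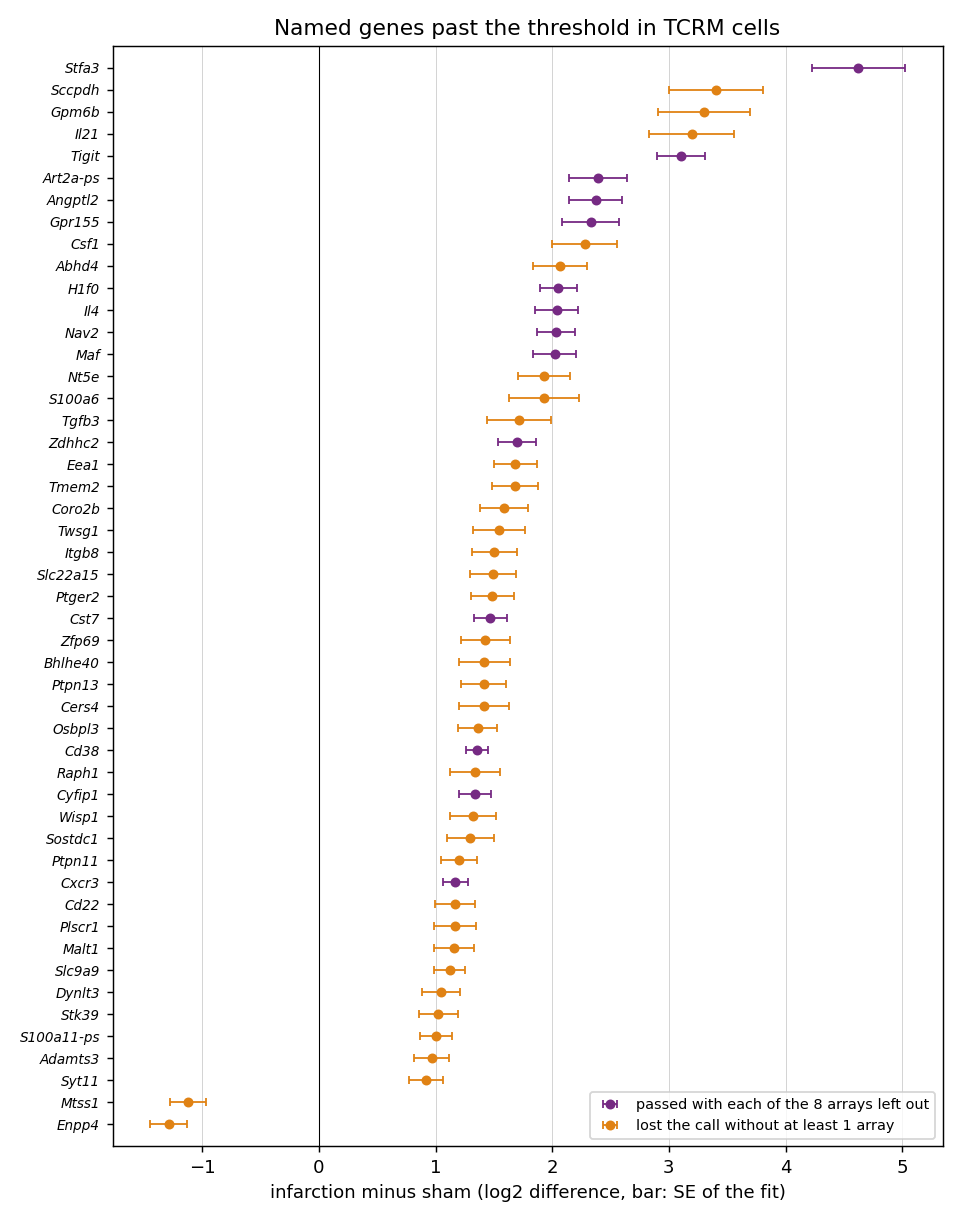
Difference between infarction and sham (log2, horizontal axis) with the SE of the fit for the 47 named genes that rose and the 2 that fell. Purple points are the 14 genes that passed with each array left out in turn, and orange points lost the call without at least 1 array.

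Both named helper cytokines, of 19 on the list, rose. Names come from the authors' selection on the same contrast, so this describes these 2 genes and not the list. Il21 encodes a cytokine that drives B cell and plasma cell responses, and its signal on infarction arrays 1 to 5 was 8.54, 8.21, 7.16, 8.14 and 7.87. On sham arrays 1 to 3 it was 5.5, 4.09 and 4.77. The groups did not overlap, and the lowest infarction array was array 3. The difference of 3.19 ± 0.36 (SE, adjusted p = 0.0149) is 9.15-fold, but the sham mean of 4.79 was close to the filter cutoff of 4.49, so its size is uncertain. Without infarction array 3 it was 3.4 (adjusted p = 0.0119), while the adjusted p was 0.0611 without infarction array 2 and 0.056 without infarction array 4.

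Il4 encodes the cytokine of type 2 helper and follicular helper cells that directs antibody class switching. Its signal was 7.54, 7.48, 7.23, 7.70 and 7.26 after infarction and 5.59, 4.97 and 5.66 after sham operation. The 5 infarction arrays lay close together, all above the sham arrays. The rise was 2.04 ± 0.18 (SE, adjusted p = 0.00589), or 4.11-fold.

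The promoters of Il21 and Il4, the cytokines that rose, and of Tigit, the inhibitory receptor gene that rose most, are shown from 250 bases before to 50 after the annotated start (RefSeq, GRCm38.p6, all on the minus strand and written 5′ to 3′). Capitals mark the letters TGGAAA (here called the NFAT motif) and TGCTGA (the Maf motif) on either strand. Other forms of either site were not searched. NFAT is the factor that calcineurin activates after receptor signalling, and c-Maf, the product of Maf, binds sites with these letters. The window of Il21 is chr3:37232587-37232886, that of Il4 is chr11:53618616-53618915 (the outermost of 2 annotated starts) and that of Tigit is chr16:43664135-43664434.
Il21: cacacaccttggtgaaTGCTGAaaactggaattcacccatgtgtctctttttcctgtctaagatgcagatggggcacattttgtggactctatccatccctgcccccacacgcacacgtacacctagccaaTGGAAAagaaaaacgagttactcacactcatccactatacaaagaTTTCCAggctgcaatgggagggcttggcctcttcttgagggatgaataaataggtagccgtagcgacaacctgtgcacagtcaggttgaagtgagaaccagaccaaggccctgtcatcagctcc
Il4: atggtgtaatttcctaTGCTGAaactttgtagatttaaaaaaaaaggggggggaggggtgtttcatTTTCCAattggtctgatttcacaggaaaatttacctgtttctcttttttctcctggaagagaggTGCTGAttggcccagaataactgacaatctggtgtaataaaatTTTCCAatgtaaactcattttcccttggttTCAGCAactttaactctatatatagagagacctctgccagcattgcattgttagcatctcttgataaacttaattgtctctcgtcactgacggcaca
Tigit: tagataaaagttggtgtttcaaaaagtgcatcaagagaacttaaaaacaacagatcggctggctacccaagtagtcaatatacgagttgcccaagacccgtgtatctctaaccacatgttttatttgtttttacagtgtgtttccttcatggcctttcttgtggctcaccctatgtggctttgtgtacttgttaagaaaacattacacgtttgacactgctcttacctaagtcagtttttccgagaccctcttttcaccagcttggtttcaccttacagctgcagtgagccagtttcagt
Il21 held 2 NFAT motifs, 119 and 74 bases before the start, and 1 Maf motif 234 bases before it. Il4 held 2 NFAT motifs, 184 and 77 bases before the start, and 3 Maf motifs, 234, 120 and 47 bases before it. In the Tigit window neither motif occurred, nor did TGANTCA (the AP-1 site) or CACGTG (an E-box), which were absent from all 3 windows. The shorter GGAAA without the leading T, on one strand or the other, does stand in all 3 windows and is not marked. The lack of a mark in the Tigit window thus does not mean that it lacks NFAT sites. No match of one motif overlapped a match of the other, and a match describes letters and shows no binding. Of 27025 promoters of this length, 21.54% held the NFAT motif TGGAAA, 19.16% the Maf motif, 7.919% the AP-1 site and 7.238% the E-box. Of the 47 named genes that rose 36 had a promoter in the table, and 9 (25%), 9 (25%), 3 (8.33%) and 1 (2.78%) of these held them.

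Of the 27 genes on the follicular helper list 8 were named, 5 rose and 3 did not pass. The median difference of these 8 was 2.03. The authors' selection on the same contrast names them, so the median describes these 8 genes and not the list. Besides Il21 and Il4 the rises were Gpm6b, Maf and Angptl2. Gpm6b, a membrane glycoprotein best known from the nervous system, measured 9.33, 9.16, 8.43, 8.94 and 8.41 after infarction and 6.16, 6.03 and 4.47 after sham operation. The sham arrays spread over more than a log2 unit, with array 3 the lowest. Its rise of 3.30 ± 0.40 (SE, adjusted p = 0.0173) was 2.76 without sham array 3. The adjusted p was 0.0614 to 0.0727 without infarction array 1, 2 or 4.

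Maf, the transcription factor that drives Il4 and Il21 in helper cells, measured 9.77, 9.61, 9.01, 9.39 and 9.05 after infarction. On the sham arrays it was 7.29, 7.39 and 7.37, nearly the same value each time. The rise of 2.02 ± 0.18 (SE, adjusted p = 0.00589) is 4.06-fold. Angptl2, a secreted angiopoietin-like protein, rose by 2.37 ± 0.22 (SE, adjusted p = 0.00661), from 6.19 to 6.43 on the sham arrays to 8.17 to 9.01 after infarction.

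Pdcd1 encodes PD-1, the inhibitory receptor that marks follicular helper and exhausted cells. Its signal was 10.23, 10.54, 9.82, 9.92 and 9.93 after infarction and 9.03, 7.92 and 7.4 after sham operation. The groups did not overlap, but sham array 1 lay more than a log2 unit above the other sham arrays. The difference of 1.97 ± 0.33 (SE) did not pass, at an adjusted p of 0.0513, and without sham array 1 it was 2.43 (adjusted p = 0.0126). That was the 1 fit of the 8 with an array left out in which it passed. Without sham array 2 it was 1.87 (adjusted p = 0.14), and without sham array 3 it was 1.61 (adjusted p = 0.0965). Tnfsf8, the ligand CD30L, differed by 1.35 (adjusted p = 0.0824) and Tbc1d4, a regulator of glucose transporter traffic, by 1.20 (adjusted p = 0.0762), neither past the threshold.

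**Figure D4:**
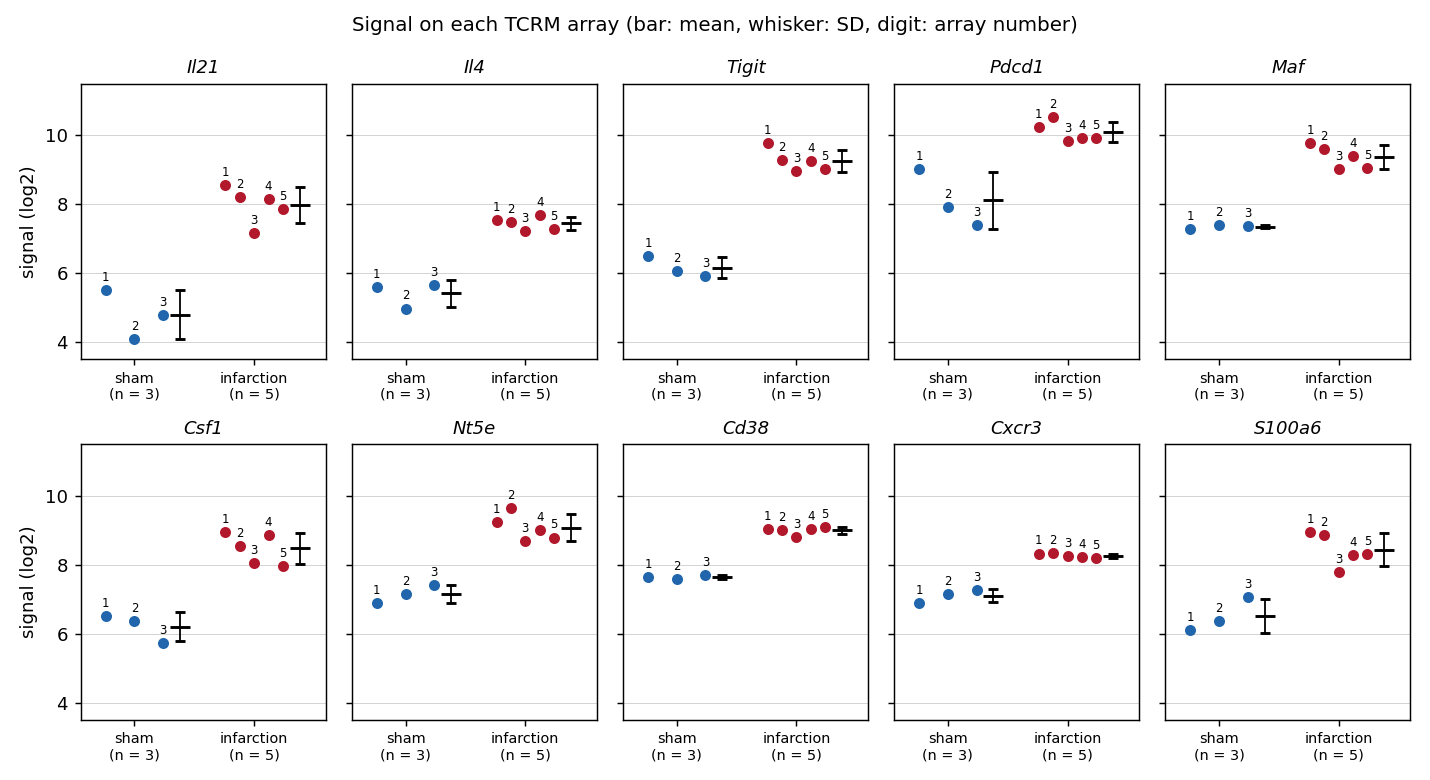
Signal (log2, vertical axis) of 10 genes on each sham (blue) and infarction (red) array, with the digit of the array and, beside the points, the mean (bar) and SD (whisker). All 5 infarction arrays lie above all 3 sham arrays in each panel, including Pdcd1, which did not pass, and Cd38 and Cxcr3 show the least spread.

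Among the 26 genes of inhibitory receptors, exhaustion and anergy, 6 were named, of which 4 rose and 2 did not pass. The rises were the receptor genes Tigit and Cd22, the secreted antagonist Sostdc1 and the ectoenzyme Nt5e, given with the next list. Pdcd1 and Nrp1 did not pass. Tigit, a receptor of T and NK cells that binds CD155 and dampens their response, measured 9.78, 9.29, 8.96, 9.25 and 9.03 after infarction and 6.5, 6.07 and 5.90 after sham operation. Every infarction array stood more than 2 log2 units above every sham array. The rise of 3.10 ± 0.21 (SE, adjusted p = 0.00363), or 8.60-fold, stayed between 2.98 and 3.28 with any 1 array left out.

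Cd22, an inhibitory co-receptor known from B cells, rose by 1.17 ± 0.17 (SE, adjusted p = 0.0349), from 5.52 to 6.32 on the sham arrays to 7.04 to 7.24 after infarction. It kept the call only without sham array 1 or 3. Sostdc1, a secreted antagonist of BMP and Wnt signals, rose by 1.30 ± 0.20 (SE, adjusted p = 0.0394). Nrp1, a co-receptor of semaphorins and VEGF also found on regulatory T cells, differed by 1.36 (adjusted p = 0.0951). Its order among infarction arrays was unlike that of Tigit, with 9.97 and 9.98 on arrays 3 and 5 and 8.67 on array 1.

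The list of nucleotide and NAD ectoenzymes held 17 genes, of which 4 were named, 3 rose and 1 fell. Nt5e encodes CD73, which makes adenosine from AMP at the cell surface. It measured 9.25, 9.66, 8.68, 9.02 and 8.80 after infarction and 6.90, 7.15 and 7.4 after sham operation, and its rise was 1.93 ± 0.22 (SE, adjusted p = 0.0172). The groups lay more than a log2 unit apart. The call was lost without infarction array 1 or 4 or sham array 2, with an adjusted p of 0.0561 to 0.0651.

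Cd38 encodes an enzyme that breaks down NAD at the cell surface and marks activated T cells. Its signal was 9.03, 9.0, 8.82, 9.03 and 9.11 after infarction and 7.66, 7.58 and 7.70 after sham operation. The pooled SD within the groups was 0.0957, the lowest of the named genes that were tested. Its rise of 1.36 ± 0.10 (SE) is 2.56-fold, and its adjusted p of 0.00363 is the same as that of Tigit, which rose more. Art2a-ps, a pseudogene of the ADP-ribosyltransferases that use NAD, rose by 2.39 ± 0.25 (SE, adjusted p = 0.00866), but its probe set may also read its close paralog, so its identity is uncertain.

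Of 40 transcription factors of helper T cells 5 were named, of which Maf and Bhlhe40 rose and 3 did not pass. Bhlhe40, a repressor that sustains cytokine production in activated T cells, measured 8.65, 8.49, 8.34, 8.45 and 8.31 after infarction and 7.5, 6.41 and 7.19 after sham operation. The infarction arrays lay close together and the sham arrays did not. Its rise was 1.42 ± 0.22 (SE, adjusted p = 0.0394). Nfil3 differed by 1.24 (adjusted p = 0.0526), Prdm1, which encodes Blimp-1, by 0.85 (adjusted p = 0.157), and Zbtb32 by 0.81 (adjusted p = 0.24). Of 23 genes of regulatory T cells 4 were named, Tigit and Nt5e among the rises above, and Nrp1 and Prdm1 did not pass.

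Of 27 secreted growth and repair factors 6 were named, of which 3 rose. Csf1, the growth factor of macrophages, measured 8.94, 8.56, 8.06, 8.87 and 7.98 after infarction and 6.52, 6.37 and 5.72 after sham operation. All infarction arrays were above all sham arrays by more than a log2 unit. The rise was 2.28 ± 0.28 (SE, adjusted p = 0.0179), and the adjusted p was 0.0745 without infarction array 2 and also above 0.05 without infarction array 1 or 4 or sham array 2.

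Tgfb3, a cytokine of the TGF-beta family, rose by 1.72 ± 0.27 (SE, adjusted p = 0.0423), from 4.74 to 5.25 on the sham arrays to 6.23 to 7.19 after infarction. It passed in 0 of the 8 fits with 1 array left out, where the adjusted p ranged from 0.0536 to 0.11. Angptl2 is the third rise of that list. Timp2, an inhibitor of matrix metalloproteinases, differed by 0.97 (adjusted p = 0.074), Penk, the precursor of enkephalins, by 1.58 (adjusted p = 0.131) and Grn, which encodes progranulin, by 1.09 (adjusted p = 0.118). Penk ranged from 3.85 to 5.93 on the sham arrays and from 6.20 to 6.63 after infarction.

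Of 39 chemokine receptors, homing and adhesion genes 5 were named and 1 rose. Cxcr3, the receptor for interferon-induced chemokines on type 1 helper cells, measured 8.33, 8.33, 8.27, 8.22 and 8.21 after infarction and 6.89, 7.16 and 7.26 after sham operation. The infarction arrays were nearly equal. The rise was 1.17 ± 0.11 (SE, adjusted p = 0.00589), or 2.25-fold.

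S1pr2, a sphingosine-1-phosphate receptor that helps to hold follicular cells in place, differed by 1.26 (adjusted p = 0.105) and Ccl5, a chemokine of effector cells, by 1.31 (adjusted p = 0.22). Ccl5 overlapped between the groups, with 7.59 on infarction array 3 and 7.75 on sham array 2. The adhesion genes Amigo2 and Lad1 had lower means after infarction, by -0.94 (adjusted p = 0.0599) and -1.22 (adjusted p = 0.239). Of 26 cytotoxic and effector genes 4 were named, and Cxcr3 and Cst7 rose. Cst7, which encodes cystatin F, an inhibitor of lysosomal cathepsins in cytotoxic cells, rose by 1.47 ± 0.14 (SE, adjusted p = 0.00699), from 6.86, 7.48 and 6.97 to 8.48 to 8.70. Nkg7, a protein of cytotoxic granules, differed by 1.06 (adjusted p = 0.138).

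The S100, annexin and galectin list had 24 genes, of which 4 were named. S100a6, a calcium-binding protein of migrating and dividing cells, measured 8.95, 8.86, 7.79, 8.28 and 8.32 after infarction and 6.10, 6.38 and 7.06 after sham operation. Infarction array 3 and sham array 3 came closest to each other. The rise was 1.93 ± 0.30 (SE, adjusted p = 0.0394) and, with 1 array left out, passed only without infarction array 3 or sham array 3. S100a4, Anxa2 and Lgals1 were separated between the groups in the same direction but did not pass, with differences of 1.40, 1.31 and 1.03 and adjusted p of 0.0824, 0.0624 and 0.169. S100a11-ps, a pseudogene that was chosen after its values were seen and whose probe set may read its parent gene, rose by 1.0 ± 0.14 (SE, adjusted p = 0.0267).

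Of 41 receptors and ligands of the cytokine and TNF families 3 were named, the receptors Il1r2 and Il1r1 and the ligand Tnfsf8 given above, and 0 passed. Il1r2, the decoy receptor for IL-1, ranged from 4.43 to 4.67 on the sham arrays and from 5.79 to 7.51 after infarction, a difference of 2.0 ± 0.38 (SE, adjusted p = 0.0778). Its sham arrays lay near the filter cutoff, so the size of this difference is uncertain. Il1r1, the signalling receptor for IL-1, differed by 1.51 (adjusted p = 0.158). Of 30 hypoxia response genes 2 were named. Egln3, a prolyl hydroxylase that marks HIF for degradation, measured 7.75, 8.01, 7.16, 6.97 and 7.30 after infarction and 5.94, 4.06 and 5.22 after sham operation. Its difference of 2.36 ± 0.40 (SE) did not pass (adjusted p = 0.0513), while Bhlhe40, also on this list, did.

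All 4 named genes of the 51 of lipid and sterol handling rose. Their names come from the authors' selection on the same contrast, so this describes the 4 genes and not the list. Sccpdh, a putative dehydrogenase found on lipid droplets, measured 8.99, 8.40, 7.33, 7.63 and 7.12 after infarction and 4.34, 4.31 and 4.81 after sham operation. The sham arrays lay near the filter cutoff, so the size of the rise of 3.4 ± 0.41 (SE, adjusted p = 0.0173) is uncertain. Gpr155, a membrane protein that senses cholesterol at the lysosome in human cells, rose by 2.33 ± 0.24 (SE, adjusted p = 0.00851). Osbpl3, an oxysterol-binding protein, rose by 1.36 (adjusted p = 0.0174) and Plscr1, a phospholipid scramblase, by 1.17 (adjusted p = 0.0394). The sham mean of Plscr1 was 4.49, at the filter cutoff, so the size of its rise is uncertain too. It passed in 1 of the 8 fits with 1 array left out. Abhd4, a hydrolase of N-acyl phospholipids that is not on the list, rose by 2.07 ± 0.23 (SE, adjusted p = 0.0136).

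Of 41 genes of neuronal guidance and axons 5 were named, of which Gpm6b and Nav2 rose. Nav2, a protein that links the cytoskeleton to neurite growth, rose by 2.04 ± 0.16 (SE, adjusted p = 0.00383), from 6.28 to 6.52 on the sham arrays to 8.18 to 8.86 after infarction. H1f0, a linker histone of resting and differentiated cells, measured 10.18, 10.47, 9.87, 10.01 and 9.81 after infarction and 7.90, 7.97 and 8.18 after sham operation. The groups lay far apart, and its rise was 2.05 ± 0.16 (SE, adjusted p = 0.00383). Zdhhc2, a palmitoyltransferase, rose by 1.70, Eea1, a tether of early endosomes, by 1.68, and Tmem2, a hyaluronidase of the cell surface, by 1.68, with adjusted p of 0.00699, 0.0119 and 0.0172.

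The following named rises were chosen after their values were seen. Ptpn11, which encodes the phosphatase SHP-2, measured 10.56, 10.77, 10.39, 10.78 and 10.49 after infarction and 9.41, 9.11 and 9.68 after sham operation. Malt1, the paracaspase that links the T cell receptor to NF-kappaB, measured 9.8 to 10.46 and 8.87 to 9.32. Both signalling genes were separated between the groups, and they rose by 1.20 ± 0.15 (SE, adjusted p = 0.0221) and 1.16 ± 0.17 (SE, adjusted p = 0.037).

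Among receptors and transporters, Itgb8, the integrin chain that activates latent TGF-beta, rose by 1.5 (adjusted p = 0.0223), Ptger2, a receptor for prostaglandin E2, by 1.49 (adjusted p = 0.0189) and Slc22a15 by 1.49 (adjusted p = 0.0239). Slc9a9, an endosomal sodium/hydrogen exchanger, rose by 1.12 (adjusted p = 0.0173). Of genes of the actin skeleton and motors, Coro2b rose by 1.59, Cyfip1 by 1.34, Raph1 by 1.34 and Dynlt3 by 1.04, with adjusted p between 0.00813 and 0.0429. Cyfip1 belongs to the WAVE complex, which starts actin branching, and Raph1 encodes lamellipodin. Twsg1, which binds BMPs, rose by 1.54 (adjusted p = 0.0337) and Wisp1, a matricellular protein, by 1.32 (adjusted p = 0.0375). Cers4, a ceramide synthase, rose by 1.41 (adjusted p = 0.0375). Ptpn13, Zfp69, Stk39, Adamts3 and Syt11 rose by 1.41, 1.43, 1.02, 0.97 and 0.92, with adjusted p between 0.0281 and 0.0471.

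The named genes with a lower signal were fewer, and 2 passed. Enpp4, an ectoenzyme of the nucleotide pyrophosphatase family, measured 6.67, 6.78, 6.79, 6.75 and 7.07 after infarction and 7.85, 7.95 and 8.48 after sham operation. The infarction arrays lay close together, below every sham array. It fell by 1.29 ± 0.16 (log2, SE, adjusted p = 0.0189), and by 1.09 without sham array 3. The adjusted p was 0.0599 to 0.0748 without infarction array 1, 2 or 4 or sham array 2.

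Mtss1, a protein that bends membranes and binds actin, measured 7.47, 7.55, 7.86, 7.77 and 7.96 after infarction and 8.64, 8.76 and 9.13 after sham operation. The groups did not overlap. It fell by 1.12 ± 0.16 (SE, adjusted p = 0.0303) and, with 1 array left out, passed only without infarction array 3 or sham array 1.

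Of 26 genes of naive and resting T cells 4 were named, Enpp4, Trat1, Arhgap29 and Amigo2. All 4 lay wholly lower after infarction, with a median difference of -1.19, and Enpp4 passed. The authors' selection on the same contrast names these 4, so the median describes them and not the list. Trat1, an adaptor that stabilises the T cell receptor complex, differed by -1.10 (adjusted p = 0.0976) and Arhgap29 by -1.38 (adjusted p = 0.103). Treml2, a receptor of lymphocytes and myeloid cells chosen after its values were seen, measured 6.86 to 7.46 after infarction and 7.94 to 8.45 after sham operation, a difference of -1.10 (adjusted p = 0.0513). Of 30 genes of T cell identity and receptor signalling, Trat1 was the 1 named. Of 52 genes of replication and the cell cycle 0 were named. Outside that list, and chosen after their values were seen, the core histone genes Hist1h3e, Hist2h2ac and Hist1h2an, a family made mostly during DNA replication, differed by 2.36, 1.52 and 1.13, with adjusted p of 0.0663, 0.133 and 0.198. None of the 3 passed, and near-identical copies of these genes make their identity uncertain. Hist1h3e measured 5.77 to 7.08 after infarction and 3.05 to 4.80 after sham operation, without overlap. Its sham mean of 4.16 lay below the filter cutoff, so the size of its difference is uncertain. Plk3, a kinase of the stress response and the cell cycle, differed by 0.98 (adjusted p = 0.154).

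**Figure D5:**
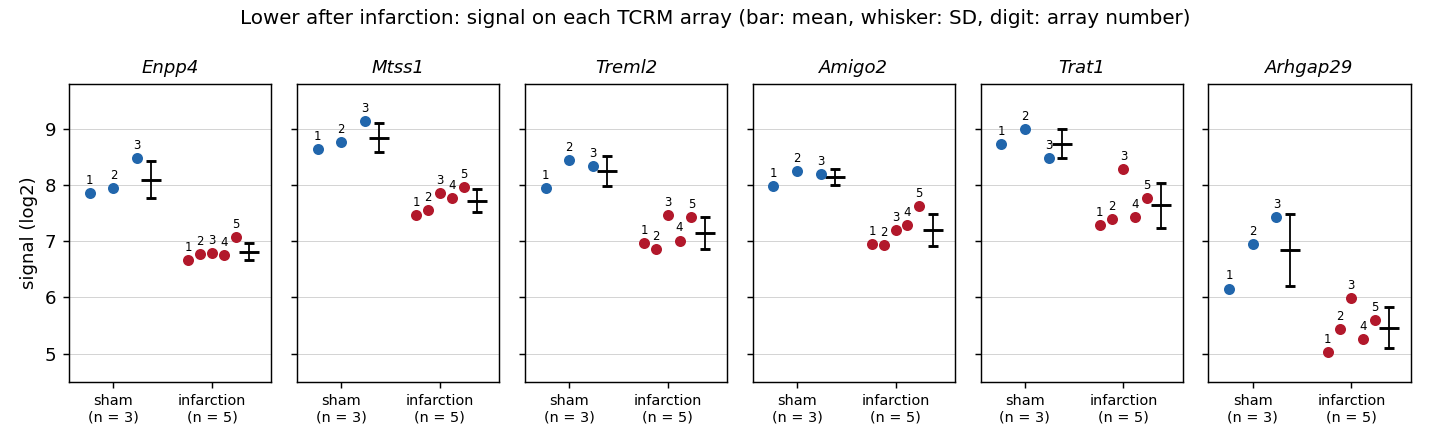
Signal (log2, vertical axis) of 6 genes with lower means after infarction, on each sham (blue) and infarction (red) array, with the digit of the array and, beside the points, the mean (bar) and SD (whisker). Enpp4 and Mtss1 passed, and Treml2, Amigo2, Trat1 and Arhgap29 lay apart without passing.

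Spread differed between the named genes, receptor segments, gene models and small RNAs left aside. Slc9a9 (pooled SD within groups 0.182), Cxcr3 (0.122) and Cd38 had the least, and Stom (0.890), Arhgap20 (0.805) and Lpar3 (0.759) the most. Lpar3, a receptor for lysophosphatidic acid, ranged from 6.93 to 9.15 after infarction and from 5.36 to 5.97 after sham operation, and its difference of 2.11 ± 0.46 (SE) did not pass (adjusted p = 0.108). Stom, a membrane scaffold protein, differed by 1.63 (adjusted p = 0.228) and Arhgap20 by -1.61 (adjusted p = 0.197).

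Arrays ordered these genes unevenly. Of the 109 probe sets that rose, infarction array 2 was the highest on 40 and array 1 on 31, while array 3 was the lowest infarction array on 46 and array 5 on 26. Infarction arrays 3 and 5 were also those with the higher median over the 48 tested probe sets of the highest identifiers given above. Of the sham arrays, array 1 was the highest on 51, array 3 on 39 and array 2 on 19. The part of these array differences in the calls was not tested beyond the covariate fit and the left-out arrays.

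Markers of other cell types were named too sparsely for a check of purity. Cd22 was the 1 named of 22 genes of B cells, Prdm1 of 11 of plasma cells, Nkg7 of 12 of CD8 T and NK cells, Cybb of 24 of macrophages, monocytes and dendritic cells, Stfa3 of 16 of neutrophils and mast cells and Timp2 of 14 of stroma and endothelium. Of 11 genes of erythroid cells and platelets 0 were named. Stfa3, a stefin that inhibits cysteine proteases and has close paralogs, so that its identity is uncertain, had the largest rise of the probe sets that passed. It measured 8.71, 8.34, 7.88, 9.51 and 7.80 after infarction and 4.19, 4.08 and 3.21 after sham operation, below the filter cutoff on all 3 sham arrays. Its rise of 4.62 ± 0.40 (SE, adjusted p = 0.00588) therefore has an uncertain size. Cybb, an oxidase subunit of phagocytes, ranged from 7.79 to 8.64 after infarction and was 5.82, 6.5 and 8.01 after sham operation, with sham array 3 inside the infarction range (adjusted p = 0.186). Whether other cells contributed to these signals was not tested.

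The 69 called probe sets without a usable symbol held 59 rises and 10 falls. The largest was a rise of 3.02 (adjusted p = 0.00661), from 3.13 to 3.93 on the sham arrays to 6.0 to 7.01 after infarction, and the largest fall was -1.09 (adjusted p = 0.0375). Of these 69, 66 were in neither deposited table, 2 had several symbols and 1 had none. Rises and falls without a name thus outnumber those with one.

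The authors' table for the recipients' own CD4+ T cells names 95 probe sets that the table for the transferred cells does not, and 65 of them were tested here. In limma 0 of the 65 passed in TCRM cells, and 15 (23.1%) had an unadjusted p under 0.05, against 14.9% of all tested probe sets. Their median difference was 0.038 and the lowest adjusted p was 0.126. Whether the responses of the 2 populations differ was not tested.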

How the data were processed

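The authors deposited log2 signal for 41345 probe sets on 16 whole transcript arrays, after preamplification of the RNA per the labels' protocols. The submitters' processing notes name Expression Console and Transcriptome Analysis Console. Versions, summarisation and build were not given in the sources used here. From the authors' 2 deposited tables only identifiers and symbols were used. Of the 175 symbols of the TCRM table, 157 matched the RefSeq gene table (GRCm38.p6) and 7 more matched a synonym.

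The 8 TCRM arrays were grouped by title. A filter at the 30th percentile of mean signal over these 8 arrays (log2 4.49) dropped 12404 probe sets, and 28941 were tested. Using limma's lmFit and eBayes (limma 3.58.1, R 4.3.3), a mean per group was fitted, with Benjamini-Hochberg adjustment of the 2-sided p-values and a threshold of 0.05. The fit was tested on simulated data. That an array stands for 1 animal is stated in the design text alone, so p-values measure the spread between these arrays, which may in part be technical.

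The genes, lists and tests were chosen with earlier results of these data known. Genes named were up to 20 rises and 20 falls with the largest change past the threshold, the named members of the lists, and the 3 with the lowest and the 3 with the highest SD within groups, and others are said to be chosen after their values were seen. Gene models, small RNAs, clones and receptor segments were counted only. The planned likeness of genes to Il21 across arrays was not reported, since the 8 arrays fall into 2 groups. Alternatives changed the filter, scaling, spread, weights, labels, threshold and arrays. Those with the probe sets of the highest identifiers were added after seeing the data. Promoters were read from the RefSeq table. Figures were drawn with matplotlib 3.10.9.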

Additional observations from a re-analysis of the deposited data

Results flagged for a closer look

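Cers4, a ceramide synthase that rose by 1.41 (adjusted p = 0.0375), had 1 infarction array far from the other 4. Infarction array 2 measured 9.89, the next highest 9.32 and the lowest 9.28, so the gap was 0.931 of the whole range, above Dixon's critical value of 0.71 for 5 samples. It was the 1 such case among 84 genes tested in this way. Chance alone gives about 1 in 20, which is more than was found, so this case need not be unusual.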

How the results depend on the processing

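The counts depended on the processing. The 84 genes examined by name kept their direction under every alternative run. They were named through the authors' selection on the same contrast, so a kept direction could be foreseen and is no independent check. Of 122 calls in all, with 109 rises and 13 falls, the number was 78 (70 and 8) without a filter, 229 (201 and 28) with the spread taken from all 16 arrays and 64 (60 and 4) with array weights. It was 0 in all (0 rises, 0 falls) under 2 settings, infarction array 5 taken as sham (2488 probe sets at an unadjusted p under 0.05 in limma) and the median of the highest identifiers as a covariate (2017). A threshold of 2-fold with an unadjusted p under 0.05 gave 463 (361 and 102), so that the share of rises was 78% in place of 89.3%, and an adjusted p under 0.10 gave 344 (285 and 59). Leaving out each array in turn gave 24 to 260 calls, 24 to 223 rises and 0 to 37 falls. The lowest were 24, 25 and 29 without infarction arrays 1, 2 and 4, then 30 without sham array 2, 45 without infarction array 5 and 60 without sham array 3, and 260 without sham array 1. These settings shared 24, 25, 29, 25, 41, 45 and 93 calls with the 122. With 1 array fewer the test has fewer samples, and the cause of the other changes was not tested. A stricter filter, new quantile normalization, median centring, variance shrinkage with a trend, identical probe sets counted once, the highest identifiers left out and the fit without infarction array 3 moved the total by less than 1.5 times.

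The titles use the numbers 1 to 3 in both groups, and deviations of same-numbered arrays correlated by 0.0483, -0.0562 and 0.0433. These values show little shared deviation, but so few arrays cannot settle whether the numbers pair them. With the number as a replicate block 2 probe sets passed, Stfa3 and Tigit, with 2 rises and 0 falls. Signal over background is not known, which limits the size of rises from low sham signal, and 11 of the 109 rises had a sham mean under the filter cutoff.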
